A study of Mus musculus with 10 samples.

Results

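The solvent-treated arm of this series gives the transcript levels of cultured mouse neurons that had received no kinase inhibitor. Its members are the 5 arrays whose labelled agent is DMSO, of 10 arrays in all, and the other 5 come from cells given SP600125, a small molecule that blocks JNK, the kinases that phosphorylate Jun. The neurons were of mixed 129Sv-C57Bl/6 strain and are called terminally differentiated in the labels, which give neither the age nor the brain region nor the way the cells were obtained. DMSO was given 3 times, 2 hours apart, as was the inhibitor at 25 µM. Replicates a and b belong to drug batch 1 and the remaining 3, c to e, to drug batch 2. The word refers to batches of SP600125 itself. The DMSO arrays share the label with the SP600125 arrays of that batch, and the labels do not say what else differed between batches. Each array read total RNA from a whole culture on an Affymetrix whole-transcript design, and the labels call the replicates biological without saying that they were separate cultures, so the spread between them may be technical.

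A neuron is known by the transmitter it makes and loads into vesicles, by the transcription factors that record where along the body axis it arose, and by its set of channels and receptors. Vesicular glutamate transporters mark excitatory cells, glutamate decarboxylases mark GABA cells, and a neuronal glycine transporter marks the glycine cells of the brainstem and spinal cord. Hox genes lie in 4 clusters (a, b, c and d) and are switched on in hindbrain and spinal cord but not in forebrain, with higher-numbered genes reaching further to the tail.

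Values are log2 signals of the brightest probe set that carries 1 gene symbol, for 19938 genes. Every probe set has its own affinity, so a level or a rank orders brightness on the array and not the number of transcripts. As the dim end of each array served its 1027 olfactory receptor genes, which neurons outside the nose hardly use. The 95th percentile of these genes lay between 5.18 and 5.46 on the 5 arrays and is called the dim line here. A gene counts as above the line where it exceeded that value on each of the 5 arrays. By this count 11710 of the 19938 genes, or 58.7%, were above the line, as were 34 of the 1027 olfactory receptor genes themselves. The median gene mean was 5.98, the 90th percentile 8.40 and the 99th percentile 10.33. Genes above the line had a median SD between arrays of 0.10, and Spearman correlations between arrays over genes ran from 0.9937 to 0.9964. Precision is limited by the small number of arrays.

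Replicate b stood apart from the other arrays. It was the lowest of the 5 arrays for 4620 of the 11710 genes above the line, or 39.5%, and the highest for 15.7%. The spread of gene values was narrowest there (SD 1.76, against 1.80 to 1.84 on the others), and its dim line was the highest. Without replicate b, 12064 genes were above the line.

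**Figure D1:**
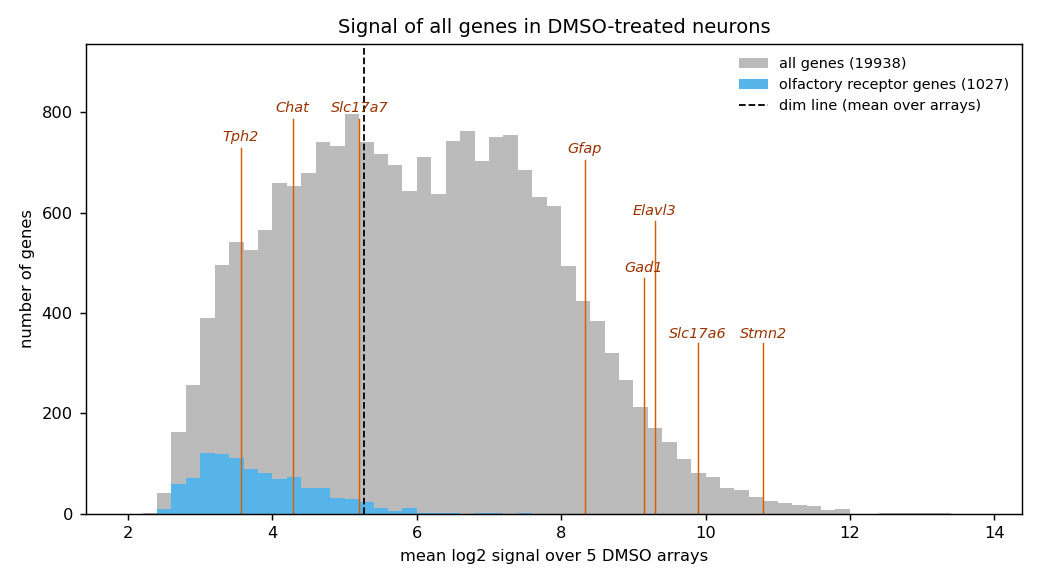
The histogram counts genes (vertical axis) by mean log2 signal over the 5 DMSO arrays (horizontal axis), with all 19938 genes in grey and the 1027 olfactory receptor genes in blue. The dashed line is the dim line averaged over arrays (5.27), and the marked genes show Stmn2 and Slc17a6 far into the bright end while Slc17a7, Chat and Tph2 lie among the dim genes.

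The bright end of the array held genes that most cells use. Eef1a1, a translation factor, had 13.01 ± 0.05, Actb, cytoplasmic actin, 12.82 ± 0.03, and the mitochondrial genes COX2 and ND3 12.45 ± 0.14 and 11.86 ± 0.12. Tuba1a, the tubulin of young neurons, had 11.91 ± 0.11 and Mest, an imprinted gene, 11.64 ± 0.06. Baiap2l1 ranked first (13.27 ± 0.06), but its other probe sets had means of 11.26 and 4.81, so its rank rests on the choice of probe set.

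The neuronal label was set beside its markers, which is no test of it, since the list was chosen with earlier results of these data known. All 28 of the pan-neuronal genes were above the line, against 58.7% of all genes, with a median level of 8.92 and 18 members in the brightest 10% of all genes. Stmn2, a regulator of microtubules in growing axons, read 10.88, 10.59, 10.85, 10.82 and 10.88 on replicates a to e (mean 10.80 ± 0.12, SD, n = 5, percentile 99.5). Elavl3, a neuronal RNA-binding protein, read 9.34, 9.03, 9.36, 9.35 and 9.39 (mean 9.29 ± 0.15, percentile 96.3). In both genes replicates a, c, d and e lay within 0.1 of each other and replicate b lay below them. Gap43, a protein of growth cones, was the brightest of the list (11.44 ± 0.09), followed by Stmn2, the adhesion molecule Ncam1 (10.51 ± 0.09) and the dendritic microtubule protein Map2 (10.47 ± 0.08). Rbfox3, the NeuN antigen of mature neurons, had 7.85 ± 0.15, and Dcx, a marker of young neurons, had 9.64 ± 0.12. The dimmest members were Gprin1 (6.84 ± 0.10), Elavl4 (6.95 ± 0.18) and the neurofilament Nefh (7.49 ± 0.15).

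The synaptic machinery was present throughout. All 24 measured presynaptic genes and all 24 measured postsynaptic genes were above the line, against 58.7% of all genes. Their median levels were 8.27 and 7.17, against 5.98 over all genes. The vesicle proteins Syt11 (10.43 ± 0.03), Syt4 (9.88 ± 0.14), Syt1 (9.81 ± 0.15) and Sv2a (9.60 ± 0.22) led the first group, with Snap25, a fusion protein of the release site, at 9.09 ± 0.17. Sv2b, a vesicle protein related to Sv2a, was its dimmest member (6.02 ± 0.19). Among postsynaptic genes the scaffold Dlg4 (PSD-95) had 8.60 ± 0.17 and Nlgn2, the adhesion molecule of inhibitory synapses, 8.48 ± 0.16. Camk2a, a kinase abundant in mature forebrain synapses, was the dimmest of that list at 5.84 ± 0.08, while its partner Camk2b had 8.19 ± 0.14.

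Promoter sequence was set beside these levels, because promoters rich in CG dinucleotides (CpG) are known to serve broadly used genes. RefSeq windows (GRCm38.p6) of the 250 bases before the annotated start were read for the 12435 measured protein-coding genes with 1 window each. Genes above the line had a median of 17 CpG there and genes not above it a median of 3, or 4 when olfactory receptors were left out. Of genes without any CpG 7.36% were above the line, of those with 1 to 4 CpG 17.7%, with 5 to 9 CpG 51.9%, with 10 to 19 CpG 80.2%, and with 20 or more 89.9%. At least 10 CpG stood before 78.9% of the genes above the line, against 54.7% of all 12435. Across the 11573 genes other than olfactory receptors, Spearman's rho of level and CpG count was 0.595, a description over genes that are not independent and and the base composition of the probes was not examined. The rise flattened at middle levels, with a median of 16 CpG for genes between 6 and 7 and of 19 for genes over 10.

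The 6 windows below were chosen after their values were seen, to show both ends of that relation and its exceptions, with each CpG (the letters CG, which read the same on both strands) in capitals, 5′ to 3′ on the gene's strand. Elavl3 (chr9:22052024-22052273, minus strand, 20 CpG), Gad1 (chr2:70561879-70562128, plus strand, 17 CpG) and Hoxa5 (chr6:52204588-52204837, minus strand, 28 CpG) are bright genes with many CpG. Neurod6 (chr6:55681264-55681513, minus strand, 3 CpG) is dim with few. Gfap (chr11:102897201-102897450, minus strand, 2 CpG) and Col3a1 (chr1:45311288-45311537, plus strand, 0 CpG) are bright with few or none.
Elavl3: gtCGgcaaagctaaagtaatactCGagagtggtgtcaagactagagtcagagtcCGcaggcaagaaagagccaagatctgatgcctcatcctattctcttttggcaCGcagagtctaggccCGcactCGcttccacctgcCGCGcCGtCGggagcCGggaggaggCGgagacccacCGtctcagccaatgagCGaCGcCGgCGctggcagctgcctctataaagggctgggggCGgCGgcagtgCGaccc
Gad1: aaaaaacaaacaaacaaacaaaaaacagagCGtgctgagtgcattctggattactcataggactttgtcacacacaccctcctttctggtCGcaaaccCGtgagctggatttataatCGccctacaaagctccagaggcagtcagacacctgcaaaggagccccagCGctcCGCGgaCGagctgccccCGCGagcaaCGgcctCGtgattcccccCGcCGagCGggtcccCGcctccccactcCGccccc
Hoxa5: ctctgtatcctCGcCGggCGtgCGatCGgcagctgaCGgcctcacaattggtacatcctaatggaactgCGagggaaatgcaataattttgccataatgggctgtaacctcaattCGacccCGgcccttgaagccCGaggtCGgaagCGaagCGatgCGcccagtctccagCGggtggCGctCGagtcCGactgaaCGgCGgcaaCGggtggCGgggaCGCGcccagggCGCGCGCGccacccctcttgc
Gfap: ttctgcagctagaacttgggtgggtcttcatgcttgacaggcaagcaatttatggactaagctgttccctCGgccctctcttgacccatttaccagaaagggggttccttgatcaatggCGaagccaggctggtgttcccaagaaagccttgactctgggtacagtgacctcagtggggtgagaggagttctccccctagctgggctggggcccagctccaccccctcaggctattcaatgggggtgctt
Neurod6: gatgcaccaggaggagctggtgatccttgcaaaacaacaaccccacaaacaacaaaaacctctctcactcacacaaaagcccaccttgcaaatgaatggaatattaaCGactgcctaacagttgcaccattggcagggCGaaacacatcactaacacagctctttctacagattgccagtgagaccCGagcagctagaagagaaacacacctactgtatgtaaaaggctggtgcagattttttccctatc
Col3a1: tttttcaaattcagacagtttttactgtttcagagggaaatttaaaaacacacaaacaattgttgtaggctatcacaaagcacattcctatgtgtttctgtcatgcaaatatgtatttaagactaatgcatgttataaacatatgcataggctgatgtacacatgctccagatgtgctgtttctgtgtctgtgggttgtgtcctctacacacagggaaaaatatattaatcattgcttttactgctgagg
The capitals crowd toward the 3′ end of the Elavl3 and Gad1 windows and toward both ends of the Hoxa5 window. They are absent from the Col3a1 window. By list, the median count was 20 for 11 pan-neuronal genes, 19 for 15 cell division genes, 3 for 12 astrocyte genes and 4 for 11 microglial genes.

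Glutamate, GABA and glycine identity genes were mostly bright, those of acetylcholine were divided, and those of the monoamines were dim. Slc17a6, the vesicular glutamate transporter of brainstem, spinal cord and thalamus, read 9.91, 9.57, 10.01, 10.05 and 9.95 (mean 9.90 ± 0.19, percentile 98.2). Slc17a7, the transporter that dominates in adult cortex, read 5.21, 5.33, 5.28, 5.24 and 4.96 (mean 5.20 ± 0.14), above the line on 2 arrays, and Slc17a8, read at 4.88 to 5.09, was above it on none. All 5 values of Slc17a6 lay far over the dim line, and those of the other transporters lay around or under it. Of the other glutamate genes, the amino acid carriers Slc38a1 (9.87 ± 0.03) and Slc38a2 (8.99 ± 0.05) and the neuronal uptake carrier Slc1a1 (6.97 ± 0.14) were above the line.

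Of 9 measured genes of GABA and glycine identity, 8 (88.9%) were above the line, against 58.7% of all genes. The GABA-making enzyme Gad1 read 9.23, 8.75, 9.28, 9.20 and 9.24 (mean 9.14 ± 0.22) and its partner Gad2 8.84, 8.40, 8.86, 8.83 and 8.79 (mean 8.74 ± 0.19). Replicate b was lowest for both, with the other 4 arrays within 0.1 of each other. Slc32a1, which fills vesicles with GABA or glycine, had 6.64 ± 0.20, and the uptake carrier Slc6a11, known from astrocytes, had 9.63 ± 0.08. Slc6a5, the glycine transporter of glycine-releasing neurons, read 8.92, 8.38, 9.09, 9.11 and 9.05 (mean 8.91 ± 0.31, percentile 94.3). Slc6a9, a glycine carrier of glia and some neurons, had 8.09 ± 0.11. The exception was Slc6a13, a GABA carrier of meninges and liver (4.98 ± 0.12).

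Of 4 cholinergic genes, 2 (50.0%) were above the line, near the 58.7% of all genes. The defining markers of this cell type were on both sides of it. Chat, the acetylcholine-making enzyme, read 4.17, 4.29, 4.26, 4.28 and 4.39, and the choline carrier Slc5a7 had 4.12 ± 0.11. The vesicle transporter Slc18a3, itself a defining marker (6.35 ± 0.22), and the esterase Ache (7.39 ± 0.30) were above it. None of 13 measured monoamine genes was above the line on all arrays, against 58.7% of all genes. Th, which starts dopamine synthesis, read 4.76, 5.43, 5.16, 5.17 and 5.20 and passed the line on 1 array. Tph2, which starts serotonin synthesis in neurons, had 3.56 ± 0.12, and Slc6a3, the dopamine carrier, had 5.31 ± 0.22, above the line on 1 array.

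**Figure D2:**
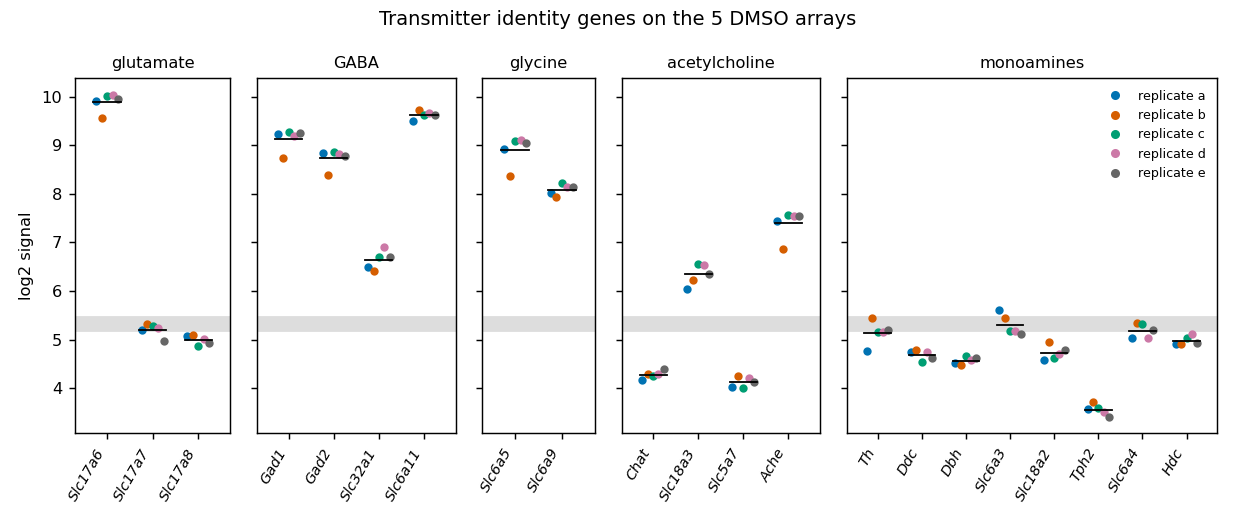
Each point is the log2 signal of 1 array (vertical axis, colours for replicates a to e) for a gene of the named transmitter, bars are means over the 5 arrays, and the grey band spans the dim lines of the arrays (5.18 to 5.46). Slc17a6, Gad1, Gad2 and Slc6a5 sit well over the band with replicate b lowest, while Slc17a7, Chat, Th and Tph2 sit in or under it.

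Of 35 measured peptide, granin and processing genes 18 (51.4%) were above the line (19 without replicate b), near the 58.7% of all genes. Cpe, a processing enzyme, was the brightest (11.12 ± 0.05). Penk, the enkephalin precursor, had 9.23 ± 0.21, and Sst, somatostatin, read 8.95, 8.48, 9.20, 9.20 and 9.19 (SD 0.31). The granin Scg2 had 9.04 ± 0.15, Npy 7.67 ± 0.15, Tac1, the substance P precursor, 7.38 ± 0.13 and Pnoc, the nociceptin precursor, 6.99 ± 0.23. Cck (5.14 ± 0.06), Vip (4.23 ± 0.11), Pmch (3.92 ± 0.15) and Crh (3.58 ± 0.09) were not above it.

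Position along the body axis was read from the Hox genes. Of 37 measured Hox genes 21 (56.8%) were above the line (23 without replicate b), near the 58.7% of all genes, with a division by number. In paralogue groups 1 to 8, 19 of 21 genes were above it, in group 9 it was 1 of 4, and in groups 10 to 13 it was 1 of 12. The group 1 to 8 genes had a median level of 6.79 and the group 10 to 13 genes of 4.45. Hoxa5, a gene of hindbrain and cervical cord, was the brightest, with 9.66, 9.40, 9.78, 9.75 and 9.74 on replicates a to e (mean 9.67 ± 0.16, percentile 97.7). Hoxb6 (8.15 ± 0.21), Hoxb9 (7.86 ± 0.16), Hoxb5 (7.83 ± 0.17), Hoxc5 (7.64 ± 0.18) and Hoxb7 (7.49 ± 0.14) followed.

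The edge of the expressed range differed between clusters. In the b cluster every measured gene from Hoxb1 (6.16 ± 0.11) to Hoxb9 was above the line and Hoxb13 was not (4.85 ± 0.19). In the a cluster Hoxa7 (6.53 ± 0.12) was the last one above it, while Hoxa9 (5.46 ± 0.16) and Hoxa3 (5.29 ± 0.10) passed the line on 4 arrays each. In the c cluster the range ended at Hoxc8, which read 6.15, 6.87, 6.49, 6.62 and 6.28 and was highest on replicate b, the array that was lowest for 13 of the 21 Hox genes above the line. In the d cluster Hoxd3 (7.43 ± 0.19), Hoxd4 (6.04 ± 0.03) and Hoxd8 (5.94 ± 0.18) were above it. Hoxd1 (3.82 ± 0.09) was the only member of groups 1 to 8 that passed the line on no array, and Hoxd11 (5.56 ± 0.09) was the exception in groups 10 to 13, with 5.62, 5.65, 5.50, 5.58 and 5.44, all close over the line. With the line at the 99th percentile of olfactory receptors, 47.1% of all genes were above it. In Hox groups 1 to 8 it was 15 of 21 genes, and in groups 10 to 13 it was 0 of 12. Hoxb1, Hoxd4, Hoxd8 and Hoxd11 were among those no longer above it.

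**Figure D3:**
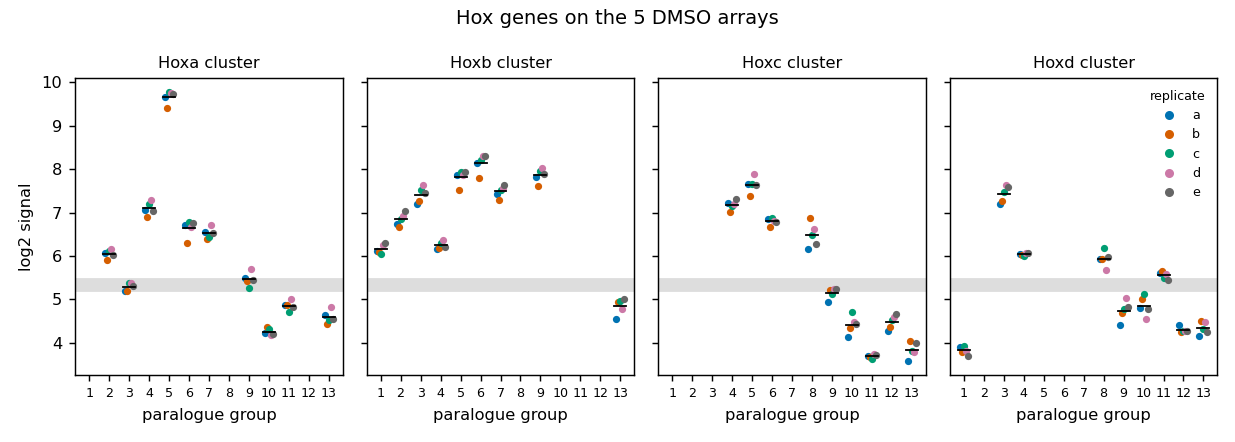
Log2 signal (vertical axis) of each measured Hox gene by paralogue group (horizontal axis) in the 4 clusters, with 1 point per array in the replicate's colour, a bar for the mean, and the grey band of dim lines. Groups 1 to 8 lie mostly over the band, and Hoxb9 is the only gene of group 9 with every point over it. The mean of Hoxa9 lies at its upper edge, and in groups 10 to 13 Hoxd11 alone has a mean over it.

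Factors of the cortical list were divided, and 19 of 29 measured members (65.5%) were above the line, against 58.7% of all genes. Tbr1, a factor of glutamatergic cortical neurons, read 4.20, 3.86, 4.08, 4.08 and 4.18, Neurod6 had 3.51 ± 0.20, Eomes, a factor of cortical intermediate progenitors, 4.39 ± 0.12, and Emx2 4.76 ± 0.18, all under the line on every array. Emx1 (6.10 ± 0.13) and Neurod2 (5.83 ± 0.12), both known from cortical excitatory neurons, were above it. Neither was above the line at the 99th percentile of olfactory receptors. Cux1 (7.74 ± 0.12) and Cux2 (6.73 ± 0.08), known from upper cortical layers, were above the dim line as well. So were Bcl11b (6.82 ± 0.09), known from deep layers, and Pax6 (6.87 ± 0.08), known from cortical progenitors. The brightest members were genes that other regions also use: Nfib (8.88 ± 0.08), Lmo4 (8.83 ± 0.04), Nfia (8.66 ± 0.23) and Bcl11a (8.29 ± 0.19). Factors of the interneuron list were divided. Dlx1 (5.11 ± 0.14), Dlx2 (5.01 ± 0.19) and Nkx2-1 (4.67 ± 0.16) were not above the line. Lhx6 (5.48 ± 0.14), Maf (6.21 ± 0.17) and Prox1 (6.62 ± 0.06) were above it. Of 18 measured interneuron genes 6 (33.3%) were above the line, against 58.7% of all genes. Among them were Reln (9.29 ± 0.15), a secreted protein, and Calb2 (6.75 ± 0.13), a calcium buffer, while Pvalb (4.33 ± 0.04) and Calb1 (4.41 ± 0.15) were not above it.

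Of 35 measured factors of hindbrain and spinal cord neurons 19 were above the line (20 without replicate b). Ebf1 (7.98 ± 0.14) and Ebf3 (7.79 ± 0.15), broadly used in differentiating neurons, were the brightest. Pax2 (6.71 ± 0.17), Lhx1 (6.59 ± 0.16) and Lbx1 (6.55 ± 0.10), which are known from inhibitory and association neurons of the dorsal cord, had middle levels. Factors known from motor neurons were divided. Isl1 (4.79 ± 0.11) and Mnx1 (3.99 ± 0.15) were not above the line. Lhx4 (6.05 ± 0.12) and Lhx3 (5.44 ± 0.14) were above it, but Lhx3 was not with the line at the 99th percentile. Ptf1a, a factor of inhibitory neurons, was not above the dim line (3.93 ± 0.12). Of 26 measured genes of the diencephalon and midbrain list 14 were above the line, with Zic1 (8.42 ± 0.15), Nr4a2 (7.54 ± 0.07), Tcf7l2 (7.52 ± 0.04) and Pou4f1 (7.40 ± 0.09) brightest, and Otx2, which marks forebrain and midbrain, under it (4.88 ± 0.15). These shares of 54.3% and 53.8% are near the 58.7% of all genes. Of 15 measured genes of retinoic acid signalling, which sets Hox expression in the embryo, 13 (86.7%) were above the line, against 58.7% of all genes. The binding protein Crabp1 (8.34 ± 0.21) and the retinol receptor Stra6 (7.27 ± 0.09) led them.

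Glutamate receptors were bright. Of 18 listed ionotropic subunits 16 were measured, and the NMDA receptor subunit Grin1 was not among them. Of these 16, 14 (87.5%) were above the line, against 58.7% of all genes. The AMPA receptor subunits Gria4 (9.21 ± 0.11) and Gria2 (8.88 ± 0.06), the second of which limits calcium entry, led the list, with Gria1 at 8.01 ± 0.15 and Gria3 at 7.63 ± 0.12. The NMDA receptor subunit Grin2b, which is known to prevail in young neurons, read 7.83, 7.57, 7.81, 7.82 and 7.77 (mean 7.76 ± 0.11), and Grin2a, which is known to join with maturation, read 7.02, 6.85, 7.25, 7.17 and 7.26 (mean 7.11 ± 0.17). Grin2c (5.03 ± 0.14), a cerebellar subunit, and Grin3b (5.21 ± 0.08) were not above it. Of 7 measured metabotropic receptors 5 (71.4%) were above the line (6 without replicate b), with Grm5 at 9.23 ± 0.07 and Grm3 at 8.27 ± 0.16.

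Of 24 measured receptor genes for GABA and glycine 13 (54.2%) were above the line (15 without replicate b), near the 58.7% of all genes, and their levels spanned 3.36 to 9.51. The metabotropic GABA receptor Gabbr1 (9.51 ± 0.17), the inhibitory scaffold Gphn (8.88 ± 0.05) and the subunits Gabra3 (8.53 ± 0.21), Gabra5 (8.19 ± 0.23) and Gabra2 (7.97 ± 0.13) were bright, and the cerebellar subunit Gabra6 was among the dimmest genes of the array (3.36 ± 0.13, percentile 6.3). The glycine receptor subunits Glrb (8.42 ± 0.21), Glra2 (7.60 ± 0.22), known from young neurons, and Glra1 (7.57 ± 0.25), known from adult brainstem and cord, were above the line, and Glra3 (3.50 ± 0.14) was not. Slc12a5, which lowers chloride in mature neurons, had 8.67 ± 0.19, and Slc12a2, which raises it, had 8.02 ± 0.08.

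Channel genes varied by family. Of 12 measured sodium channel genes 6 (50.0%) were above the line (7 without replicate b), against 58.7% of all genes: Scn2a (8.77 ± 0.13), the accessory subunit Scn3b (8.19 ± 0.12), the leak channel Nalcn (7.83 ± 0.14), Scn8a (7.34 ± 0.14), Scn3a (7.27 ± 0.14) and Scn2b (6.12 ± 0.15). Scn1a, a main channel of central neurons, passed the line on 4 arrays (5.63 ± 0.11). Scn9a (4.41 ± 0.01), Scn10a (4.01 ± 0.09) and Scn11a (3.87 ± 0.16), the channels of pain-sensing neurons, were under the line on every array. Trpv1 (4.61 ± 0.11) and Trpa1 (3.53 ± 0.06), receptors of heat and irritants, were not above it, while Piezo2, the touch channel of sensory ganglia, was (6.72 ± 0.09).

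Of 23 measured calcium channel genes 18 (78.3%) were above the line, against 58.7% of all genes. The auxiliary subunits Cacna2d2 (8.80 ± 0.19) and Cacng4 (8.55 ± 0.06) led, and the pore subunits of the release site, Cacna1b (8.12 ± 0.09) and Cacna1a (7.88 ± 0.14), were the brightest pores. The muscle pore Cacna1s (4.95 ± 0.11) and the retinal pore Cacna1f (4.63 ± 0.13) were not above it. Of 35 measured voltage-gated potassium channel genes 21 were above the line (24 without replicate b), about the 58.7% of all genes, with Kcnd2, the pore of a fast transient current, at 8.95 ± 0.11, Kcnq3, a subunit of the M current, at 7.87 ± 0.18 and Kcnd3 at 7.70 ± 0.07. Of 43 other potassium channel genes 18 (41.9%) were above it (20 without replicate b). Kcnk9, an acid-sensitive leak channel, had 9.39 ± 0.14 and Kcnk1 8.36 ± 0.15, while the inward rectifier Kcnj2 had 3.66 ± 0.14. The pacemaker channels Hcn2 (6.90 ± 0.24), Hcn3 (6.86 ± 0.25) and Hcn4 (6.65 ± 0.16) were above the line.

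Receptors for modulatory transmitters had lower median levels than those for glutamate, GABA and glycine. Of 19 measured dopamine and serotonin receptor genes 8 (42.1%) were above the line (10 without replicate b), against 58.7% of all genes. With the line at the 99th percentile 3 were, against 47.1% of all genes. Of 21 acetylcholine receptor genes 6 (28.6%) were above the dim line (7 without replicate b). The brightest were the serotonin receptors Htr1b (7.56 ± 0.14) and Htr2c (7.08 ± 0.27), the dopamine receptor Drd2 (7.05 ± 0.07), the nicotinic subunits Chrna4 (7.81 ± 0.08) and Chrna7 (6.89 ± 0.09) and the muscarinic receptor Chrm3 (7.02 ± 0.19). Of 38 peptide, purine and cannabinoid receptor genes 13 (34.2%) were above the line (16 without replicate b), led by the PACAP receptor Adcyap1r1 (8.23 ± 0.06) and the somatostatin receptor Sstr2 (7.07 ± 0.04). Oprk1, an opioid receptor, had 3.46 ± 0.14. Of 23 trophic factors and growth factor receptors 19 (82.6%) were above the line, against 58.7% of all genes. Among them were the neurotrophin receptors Ntrk2 (8.28 ± 0.08) and Ntrk3 (7.16 ± 0.08), the receptor Gfra1 (8.61 ± 0.12) and the factor Bdnf (6.23 ± 0.08).

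The kinases that the study's inhibitor is aimed at were bright in these solvent-treated cultures. Mapk10 (JNK3), the neuronal form, read 8.99, 8.67, 9.11, 9.06 and 9.15 (SD 0.19) on its brighter probe set and 4.28 on its dimmer one, Mapk9 (JNK2) had 8.59 ± 0.14 and Mapk8 (JNK1) 8.35 ± 0.19. Jun, their substrate, varied least of these, at 8.50, 8.57, 8.55, 8.51 and 8.53. Of 11 measured JNK pathway genes 10 (90.9%) were above the line (11 without replicate b), against 58.7% of all genes. The exception was Junb (5.35 ± 0.14).

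Markers of glia were bright beside those of neurons. Of 20 astrocyte genes 18 were above the line, against 58.7% of all genes, with a median level of 8.67. Fabp7, a fatty acid carrier of radial glia and astrocytes, was the 17th brightest gene of the array, with 11.85, 11.80, 11.64, 11.65 and 11.66 (mean 11.72 ± 0.10). Sparcl1 (11.25 ± 0.10), Aldoc (10.85 ± 0.26), Glul, which makes glutamine from glutamate (10.54 ± 0.01), and the glutamate carrier Slc1a3 (10.01 ± 0.08) were bright as well. Gfap, the filament of mature astrocytes, read 8.43, 8.39, 8.30, 8.22 and 8.27 (mean 8.32 ± 0.09), and the water channel Aqp4 had 7.02 ± 0.05. S100b passed the line on 1 array and Gjb6 on none.

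Of 18 measured genes of the oligodendrocyte lineage 10 (55.6%) were above the line, near the 58.7% of all genes. Pdgfra (9.34 ± 0.02), Olig1 (9.04 ± 0.08) and Olig2 (8.44 ± 0.09), which mark the precursors, were bright, and Cspg4 (NG2), another precursor marker, was above the line on no array (5.14 ± 0.14). Fibroblasts are another known source of Pdgfra. Of genes of myelinating cells Cnp (7.73 ± 0.05), Ugt8a (6.18 ± 0.06), Mbp (6.17 ± 0.12), Myrf (5.96 ± 0.14) and Cldn11 (5.57 ± 0.11) were above the line. Mog (5.07 ± 0.17), Mag (4.85 ± 0.15), Mobp (4.98 ± 0.14) and Opalin (3.97 ± 0.10) were not. Mbp, Myrf and Cldn11 were not above the line at the 99th percentile of olfactory receptors.

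Markers of fibroblasts and of dividing cells were present as well. Of 16 fibroblast and mural genes 15 (93.75%) were above the line, against 58.7% of all genes. Their median was 8.20, with 7 members in the brightest 10% of genes. The collagen Col3a1 read 10.93, 11.07, 10.99, 11.03 and 10.97 (SD 0.06), Col1a1 had 10.87 ± 0.04, Col1a2 10.74 ± 0.05 and the matrix proteoglycan Dcn 10.53 ± 0.08, all in the top 1% of genes. These varied little between arrays, replicate b included. Rgs5, a marker of pericytes, was under the line (3.65 ± 0.05). All 19 measured cell division genes and all 17 neural progenitor genes were above the line, against 58.7% of all genes. Among the first were Pcna (9.49 ± 0.07), Top2a (8.21 ± 0.13, with a dimmer probe set at 2.55) and Mki67, which read 7.50, 7.42, 7.22, 7.20 and 7.35 (mean 7.34 ± 0.13). Of the progenitor genes, the filament Vim had 11.59 ± 0.06, the factor Sox2 9.42 ± 0.21 and the filament Nes 7.88 ± 0.11. The arrays read whole cultures, so they do not show which cells carried these transcripts.

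Of 17 microglial genes 4 (23.5%) were above the line (5 without replicate b), against 58.7% of all genes. They were Trem2 (6.13 ± 0.26), Tmem119 (5.91 ± 0.15), Cx3cr1 (5.73 ± 0.24) and Cd68 (5.71 ± 0.09). With the line at the 99th percentile 0 were, against 47.1% of all genes. P2ry12 (3.47 ± 0.04), Aif1 (3.92 ± 0.18) and Ptprc (4.14 ± 0.13) were under the line on every array. Of 12 endothelial genes 5 (41.7%) were above the dim line, against 58.7% of all genes. With the line at the 99th percentile 1 was, against 47.1% of all genes. Flt1 was brightest (6.60 ± 0.07), and Pecam1 (4.82 ± 0.21) was under the dim line on every array. Of 20 pluripotency genes 9 (45.0%) were above the dim line, against 58.7% of all genes. With the line at the 99th percentile 2 were, against 47.1% of all genes. Klf5 (7.74 ± 0.10) and Klf4 (6.32 ± 0.16), which other cell types also use, led the list. Dppa5a (5.94 ± 0.21), Lin28a (5.82 ± 0.17), Dppa2 (5.76 ± 0.16) and Tdgf1 (5.37 ± 0.10) are more particular to early cells. They were above the dim line as well, but not above the line at the 99th percentile. Pou5f1 read 4.06, 4.28, 4.46, 4.54 and 4.01, Zfp42 had 3.93 ± 0.25, and both were under the line on every array, while Nanog (5.14 ± 0.22) passed it on 1. Of 18 measured genes of other germ layers 11 (61.1%) were above the line, near the 58.7% of all genes, among them Krt8 (7.97 ± 0.06), a simple epithelial keratin, and the factors Gata4 (7.50 ± 0.08) and Gata6 (7.39 ± 0.13).

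**Figure D4:**
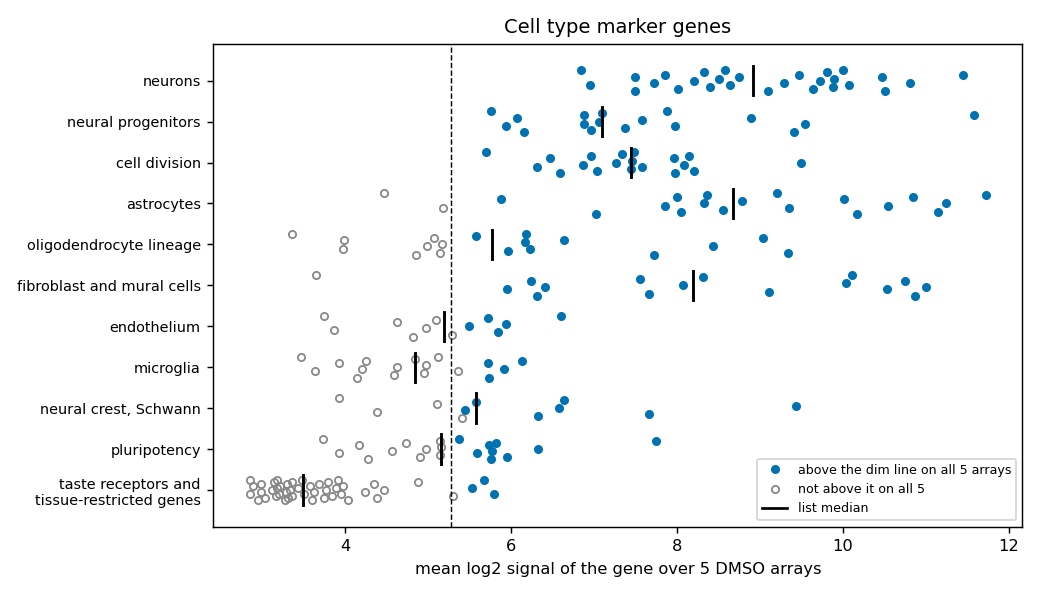
Each point is a marker gene at its mean log2 signal over the 5 DMSO arrays (horizontal axis), grouped by cell type (vertical axis), filled where it was above the dim line on all arrays and open where not, with a bar at the list median and a dashed mean dim line. Neuronal, astrocyte and fibroblast lists have medians of 8.92, 8.67 and 8.20, and microglia and endothelium have medians of 4.84 and 5.19.

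Neuronal genes were lower on replicate b than on the other arrays. On replicate b 26 of the 28 pan-neuronal genes had their lowest value of the 5 arrays, against 39.5% of all genes above the line. The same held for 22 of 24 presynaptic genes, 18 of 24 postsynaptic genes, 12 of 14 ionotropic glutamate receptor genes and 11 of 13 GABA and glycine receptor genes. Their median deviations from the mean of the 5 arrays on replicate b were −0.26, −0.28, −0.18, −0.19 and −0.29, against −0.05 for all genes above the line. Hox genes deviated there by −0.17 at the median and calcium channel genes by −0.18, while dopamine and serotonin receptor genes deviated by −0.081 and peptide, purine and cannabinoid receptor genes by −0.01. Astrocyte genes deviated by 0.05, fibroblast and mural genes by −0.003, cell division genes by −0.007 and genes common to all cells by 0.004. Replicate b was lowest for 2 of 18 astrocyte genes, 2 of 19 cell division genes and 6 of 15 fibroblast and mural genes. In whole cultures, fewer neurons and less RNA per neuron cannot be told apart. The narrower spread of values on replicate b moved with this difference and its part was not tested.

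**Figure D5:**
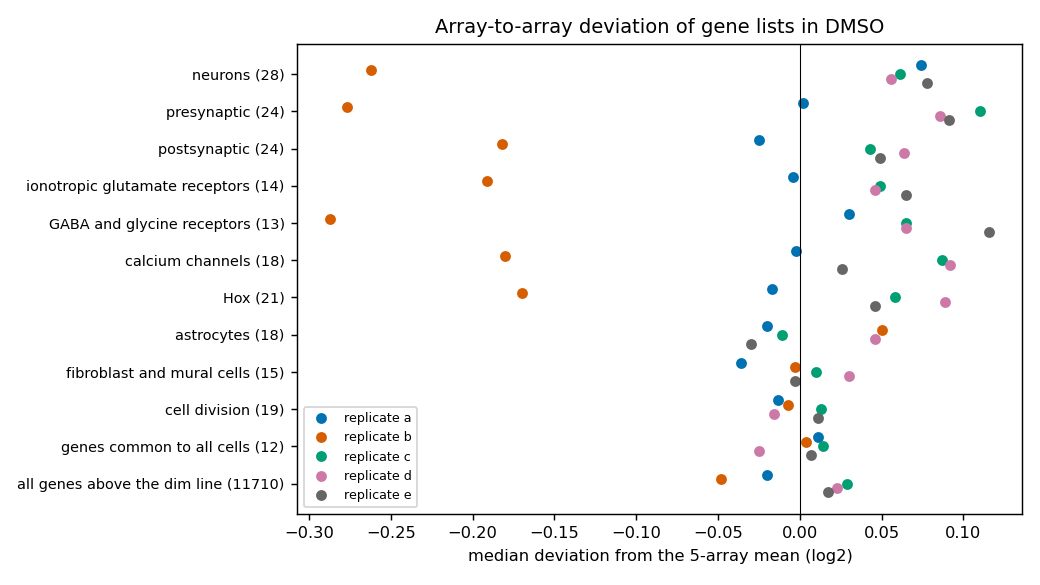
Median deviation of each gene list from the mean of the 5 arrays (horizontal axis, log2) on each array (colours), for the members above the dim line, whose number stands in brackets. Replicate b lies at −0.17 or below for the neuronal, synaptic, ionotropic glutamate receptor, GABA and glycine receptor, calcium channel and Hox lists and near 0 for astrocyte, fibroblast, cell division and common genes.

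The most variable genes fell into more than 1 pattern. Fbln5, an elastic fibre protein, read 7.39, 6.45, 7.74, 7.66 and 7.63, and Thbs1, the matrix protein thrombospondin, read 9.75, 8.94, 9.79, 9.80 and 9.76. Lgi1, a secreted synaptic protein, and the membrane protein Mal2 were also lowest on replicate b, at 6.33 and 5.80, with highest values of 7.33 and 6.78 on replicate c. Tns1, a focal adhesion protein, divided the arrays by batch instead, with 8.89 and 8.91 on replicates a and b and 8.05, 8.12 and 7.57 on c, d and e. Usp17ld, of a multicopy family of deubiquitinases whose copies cannot be told apart, did so by more, with 9.27 and 9.42 against 7.23, 7.64 and 7.30.

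The batch contrast was tested with limma over all 19938 genes, 2 arrays of batch 1 against 3 of batch 2. It called 2 genes at a Benjamini-Hochberg adjusted p under 0.05, or 0.0100% of those tested, both lower in batch 2. AY036118 differed by −1.68 (SE 0.08, limma adjusted p = 0.000299) and Usp17ld by −1.95 (SE 0.13, limma adjusted p = 0.00128). Neither call held without replicate a (limma adjusted p = 0.0558 and 0.132) or without replicate b (0.0628 and 0.206), where 1 array stands for batch 1 and is assumed to vary like the others. Over all alternatives the limma adjusted p ran from 2.22e-09 to 0.0628 for AY036118 and from 7.58e-08 to 0.206 for Usp17ld. On the SP600125 arrays, which are other samples, the same contrast gave −1.39 and −1.86 for these genes. The ribosomal protein gene Rps29 (0.78, SE 0.08) and the respiratory chain gene Ndufa1 (0.78, SE 0.09) differed in the other direction and did not pass (limma adjusted p = 0.057 for both), and their differences on the SP600125 arrays were 0.91 and 0.92. None of the identity, channel or receptor genes named here was called, and 2681 of the 19938 genes had an unadjusted limma p under 0.05. With an intensity trend in the variance prior 370 genes were called, 304 of them higher in batch 2. Replicate b, the lowest array for 39.5% of the genes above the line, is 1 of the 2 arrays of batch 1. The part of its low values in these differences was not tested.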

How the data were processed

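RNA of the 5 DMSO arrays and 5 SP600125 arrays was labelled with the Affymetrix whole-transcript assay, per the labels' protocols. The authors deposited 1 table of log2 signals for 35556 probe sets. The processing notes of the submitters name oligo 1.14.0. Which background correction, normalization and probe summary it ran is not stated in the labels, and the values were used as deposited. Since no detection calls were used, the dim line took their place.

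Names came from GEO's platform annotation and RefSeq identifiers (GRCm38.p6). Of the probe sets 21789 had 1 symbol, 1621 had several and 12146 had none. Of the 19938 genes 999 had several probe sets, and the brightest by mean was kept, which favours high levels. The 41 gene lists held 829 measured genes, of which 495, or 59.7%, were above the line. Members and lists were chosen with earlier results of these data known.

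Genes given with values were those that define transmitters, neurons and astrocytes, the 20 brightest, the 12 most variable above the line, the highest and lowest of each list, and further list members as examples. The mean and SD over arrays were computed with pandas 2.3.3. The batch contrast used limma 3.58.1 in R 4.3.3 with Benjamini-Hochberg adjustment and 3 residual degrees of freedom. Tested on simulated data with 19938 genes, it recovered 80 of 100 genes changed by 1 log2 unit and 33 of 100 changed by 0.5, with 3 false calls. Alternatives were another dim line, another normalization, another choice of probe set, other limma settings and leaving out each array.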

Additional observations from a re-analysis of the deposited data

Results flagged for a closer look

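A result is listed here where 1 of the 5 arrays lay far from the rest, measured as its gap to the nearest array over the whole range, against Dixon's critical ratio of 0.71. Of 199 levels and array measures tested, 44 passed. Chance passes about 1 in 20 independent items, but that rate is no measure for these. Some genes were picked for their spread over the same arrays, and some lists hold genes that were tested too. Replicate b was the distant array in 42 of them, 39 times as the lowest and 3 times as the highest.

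Low values on replicate b among pan-neuronal and synaptic genes were Stmn2 10.59, Elavl3 9.03, Ncam1 10.36, Dcx 9.44, Elavl4 6.64, Syt1 9.54, Sv2a 9.22 and Snap25 8.80 (log2). Among transmitter and peptide genes they were Slc17a6 9.57, Gad1 8.75, Gad2 8.40, Slc6a5 8.38, Ache 6.86, Npy 7.42, Tac1 7.16 and Reln 9.03. Among transcription factors they were Hoxb5 7.53 and Bcl11a 7.96. Among receptor genes they were Gria4 9.02, Gria2 8.78, Grin2b 7.57, Grm5 9.11, Gabbr1 9.22, Gabra5 7.78 and Glra1 7.14. Among channel genes they were Scn2a 8.55, Scn3b 7.99, Nalcn 7.59, Cacna1a 7.64, Kcnd2 8.75, Kcnq3 7.56 and Kcnk9 9.14. Among variable genes they were Fbln5 6.45, Thbs1 8.94 and Mal2 5.80. Values that stood high on replicate b were Sparcl1 11.42, Gata4 7.65 and Gata6 7.61. Neurod2 was instead low on replicate e, at 5.62 against at least 5.85 on the others.

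The median deviations of whole lists on replicate b passed for pan-neuronal (−0.26), presynaptic (−0.28), GABA and glycine receptor (−0.29) and ionotropic glutamate receptor genes (−0.19). Genes common to all cells passed through replicate d, at −0.025. These genes share their arrays, so these results are not independent of each other.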

How the results depend on the processing

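With the dim line at the 99th percentile of olfactory receptors 9384 genes (47.1%) were above it. No gene of Hox groups 10 to 13 (0 of 12) and no microglial gene (0 of 17) was among them. Of 245 named genes followed through these settings, 19 fell to the other side of this line. They were Camk2a, Cldn11, Dppa2, Dppa5a, Emx1, Hoxb1, Hoxd11, Hoxd4, Hoxd8, Lhx3, Lin28a, Mal2, Mbp, Myrf, Neurod2, Prph, Scn2b, Sv2b and Tdgf1. The 245 leave out some genes named above, among them Trem2, Tmem119, Cx3cr1, Cd68, Lhx6, Maf and Prox1. Of these, the microglial genes and Lhx6 were not above this line either. With a line from taste receptors and tissue-restricted genes 11117 genes were above it and 3 of the 245 (Lhx3, Prph and Tdgf1) fell to its other side. Leaving out replicate b moved 4 of the 245 over the line (Hoxa3, Hoxa9, Junb and Scn1a). Leaving out any other array, quantile normalization and median centring moved none of them. Averaging a gene's probe sets took Top2a and Dppa2 under the line and Scn1a over it, and moved 14 levels beyond their SD, among them Mapk10 to 6.64, Scn2a to 7.75 and Baiap2l1 to 9.78. The batch contrast called 15 genes after median centring, 23 when the 11710 genes above the line were tested alone and 370 with an intensity trend. Leaving out 1 array gave between 0 and 2 calls, with 0 without replicate a or b. No paired analysis was possible because the report uses the DMSO group alone, and its 2 batches share no replicate letter. Signal near the dim line limits what can be said of dim genes.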

Other observations

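The neural crest and Schwann cell genes were not described above. Of 11 measured genes 7 (63.6%) were above the dim line (8 without replicate b), near the 58.7% of all genes. With the line at the 99th percentile 4 were, against 47.1% of all genes. Values are mean ± SD, n = 5. Ednrb, an endothelin receptor that astrocytes also use, had 9.44 ± 0.13, and Prrx1, a mesenchymal factor, had 7.66 ± 0.06. Prph, a filament of peripheral and motor neurons, had 5.58 ± 0.13, and Foxd3, a crest factor, was not above the line (4.38 ± 0.10). Macrod2 divided the arrays in another way than most variable genes, with 9.22 on replicate a, 8.60 on b, and 8.30, 8.30 and 8.29 on c, d and e.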
